A study of Mus musculus with 6 samples.

Results

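Bcl3, Tnk1 and Akna were each read by 1 probe of a mouse lncRNA and mRNA array, 3 of its 91188 probes, in the aortas of ApoE(-/-) mice fed a normal or a high-fat diet. They were chosen by the measured difference between the diets on these same arrays. Their probes are paired with the 3 symbols in a list of differing mRNAs, which holds 357 probes, 284 of them with a gene symbol, and which was selected on at least a 2-fold difference and a p of at most 0.05. The diet differences of the 3 genes therefore repeat the choice and are given as descriptions, with no test. Probes are named here only through the study's lists of differing RNAs. Any other probe of these genes that did not differ could thus not be read. Bcl3 and Tnk1 were higher on the high-fat diet and Akna was lower. The study also ran qPCR on some of the listed mRNAs, with primers for Tnk1 and Akna, and described its results as matching the array. It set aside aortas that were not on the arrays for this. Those qPCR values were not used here. The differences changed once the slide that carried each array was considered. Against the normal diet array that shared the slide of the high-fat arrays, the difference was no smaller for Bcl3. It was smaller for Tnk1 (log2 1.09 in place of 1.53) and for Akna (-0.62 in place of -1.08), which put Akna below 2-fold. All 3 differences were below 2-fold when background was corrected in another way or left in, on scales that compress dim signals.

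All mice were male, homozygous for the apoE deletion and on a C57BL/6 background, so the normal diet mice also lacked apolipoprotein E, a model that develops atherosclerosis without the rich diet. The 3 normal diet mice received normal chow and the 3 high-fat diet mice received chow with 20% fat and 2.5% cholesterol, both for 8 weeks. Their age is not given in the sources used here. Each array held RNA of 1 aorta sample, labelled with the single dye cyanine 3. Whole aorta is a mixture of cells, so fewer cells of a type and less RNA per cell cannot be told apart. The scanner output placed normal diet replicates 1 and 3 on slide 1, and normal diet replicate 2 on slide 2 with all 3 high-fat diet arrays. On slide 1 the scanner software subtracted a median background of 42.0 and 43.1, and on slide 2 of 21.9 to 23.3. Fewer probes were detected on slide 1, 64.4% and 62.6%, than on slide 2, where 72.4% to 76.0% were. No spot was saturated.

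Bcl3 is an atypical member of the IκB family. Most IκB proteins hold NF-κB in the cytoplasm, whereas Bcl3 acts in the nucleus, where it binds NF-κB p50 and p52 dimers and can raise or lower transcription of their targets. Tnk1 is a non-receptor tyrosine kinase of the ACK family. Akna is an AT-hook protein first described as a regulator of Cd40 and its ligand in lymphocytes and later as a centrosomal protein that organises microtubules. NF-κB signalling, which drives adhesion molecules and chemokines in the vessel wall, is a well known part of atherosclerosis.

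Each gene's signal rests on a single 60-base probe spotted once per array. The 30 bases at the 3′ end of each are shown because every array value of the 3 genes comes from these oligos. The letters AATAAA, the usual polyadenylation hexamer, are in capitals where present.
Bcl3: ggtttgggtcagatttcttttgtAATAAAc
Tnk1: tctgggaaatgttttctggaggtgaggaac
Akna: aagcctctccccactgagaagttttattag
The hexamer lay in the Bcl3 probe and is found in 10.9% of all 91188 probes. GC content was 35.0% in the Bcl3 probe, 50% in the Tnk1 probe and 43.3% in the Akna probe. No other probe of the array shared a run of 20 bases with any of the 3 on either strand. The scanner files mark every probe as unmapped, so no exon or genome position is given for them.

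The promoters of the genes, from RefSeq on build GRCm38.p6, are shown because Bcl3 and Tnk1 were higher and Akna was lower, and they let the sequence near each start be compared. Each window runs from 250 bases before the annotated start to 20 bases after it, on the minus strand in all 3 genes. Capitals mark the consensus κB motif (10 letters, bound by NF-κB) and GGGCGG, the GC box, on either strand.
Bcl3, chr7:19822736-19823005: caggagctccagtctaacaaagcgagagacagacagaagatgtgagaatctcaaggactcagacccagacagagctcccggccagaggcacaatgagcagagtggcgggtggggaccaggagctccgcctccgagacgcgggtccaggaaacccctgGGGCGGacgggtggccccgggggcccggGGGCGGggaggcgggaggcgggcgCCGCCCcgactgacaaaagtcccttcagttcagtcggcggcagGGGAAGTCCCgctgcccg
Tnk1, chr11:69858711-69858980: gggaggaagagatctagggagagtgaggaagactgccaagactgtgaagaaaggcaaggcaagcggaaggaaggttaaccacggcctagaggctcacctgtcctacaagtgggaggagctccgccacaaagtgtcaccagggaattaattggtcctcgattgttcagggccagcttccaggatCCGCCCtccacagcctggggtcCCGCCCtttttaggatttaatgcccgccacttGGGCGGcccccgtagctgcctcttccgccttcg
Akna, chr4:63403426-63403695: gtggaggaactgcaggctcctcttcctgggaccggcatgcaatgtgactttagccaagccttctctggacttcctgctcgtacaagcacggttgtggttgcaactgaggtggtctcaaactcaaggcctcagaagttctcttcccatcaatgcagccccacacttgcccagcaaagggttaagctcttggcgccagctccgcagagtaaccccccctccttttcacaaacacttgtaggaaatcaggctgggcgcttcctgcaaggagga
The Bcl3 window held 1 consensus κB motif, from base 3 to base 12 counted from 1 at the start, and 3 GC boxes. The Tnk1 window held 3 GC boxes and no κB motif. The Akna window shown, and that of its other annotated start at chr4:63402584-63402853, held neither. A consensus κB motif is present in 7.69% and a GC box in 34.1% of the 32851 promoter windows of the same length. TGANTCA (AP-1), TTCNNNGAA (STAT) and TATAAA were also searched on both strands and were in none of the 4 windows. These matches describe the letters only.

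Bcl3, the nuclear IκB protein, had a quantile normalized log2 signal of 5.06, 4.52 and 4.65 on normal diet replicates 1, 2 and 3. On high-fat diet replicates 1, 2 and 3 it was 6.14, 6.09 and 5.80. All 3 high-fat arrays were above all 3 normal diet arrays, with 0.74 between the nearest arrays of the 2 diets, more than the range within either diet (0.54 and 0.34). The means were 4.74 ± 0.28 (SD, n = 3) and 6.01 ± 0.18 (SD, n = 3), a log2 difference of 1.27 (standard error 0.21 from limma), or 2.41-fold. It was 0.46 after normexp correction and 0.71 with no background subtracted, both below 2-fold. Among the normal diet arrays the one on slide 2 had the lowest Bcl3 signal, 0.33 below the mean of the slide 1 arrays. The difference was thus 1.16 against slide 1 and 1.49 (standard error 0.25) in the fit with a slide block, which sets the high-fat arrays against normal diet replicate 2.

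Tnk1, the tyrosine kinase, had log2 signals of 2.97, 3.69 and 3.09 on normal diet replicates 1, 2 and 3 and of 4.70, 4.89 and 4.76 on the high-fat arrays. The high-fat arrays lay within 0.19 of each other, and the lowest of them stood 1.01 above the highest normal diet array. Of the normal diet arrays only replicate 2, on slide 2, was well above background, so the Tnk1 signal of slide 1 is near the floor of the measurement. The means were 3.25 ± 0.38 (SD, n = 3) and 4.78 ± 0.10 (SD, n = 3), a log2 difference of 1.53 (standard error 0.23) in which 2 of the 3 normal diet values were not well above background, so its size depends on how background is treated. It was 0.36 after normexp correction and 0.56 with no background subtracted. Normal diet replicate 2 was 0.66 above the mean of the slide 1 arrays, towards the high-fat values. Against replicate 2, the normal diet array on which Tnk1 was well above background, the difference was 1.09 (standard error 0.19 with the slide as a block).

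Akna, the AT-hook protein, had log2 signals of 7.62, 7.02 and 7.81 on normal diet replicates 1, 2 and 3 and of 6.75, 6.21 and 6.26 on the high-fat arrays. Here the diets were separated by 0.28, less than the range within the normal diet (0.78) or the high-fat diet (0.54). The means were 7.49 ± 0.41 (SD, n = 3) and 6.40 ± 0.30 (SD, n = 3), a log2 difference of -1.08 (standard error 0.26), or 2.12-fold lower. Normal diet replicate 2 was 0.69 below the slide 1 mean and nearer to high-fat replicate 1 than to either slide 1 array. The difference was -1.31 against slide 1 and -0.62 (standard error 0.27) with the slide block. Akna was also short of 2-fold when normal diet replicate 3 (-0.92) or high-fat diet replicate 2 (-0.98) was dropped.

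**Figure D1:**
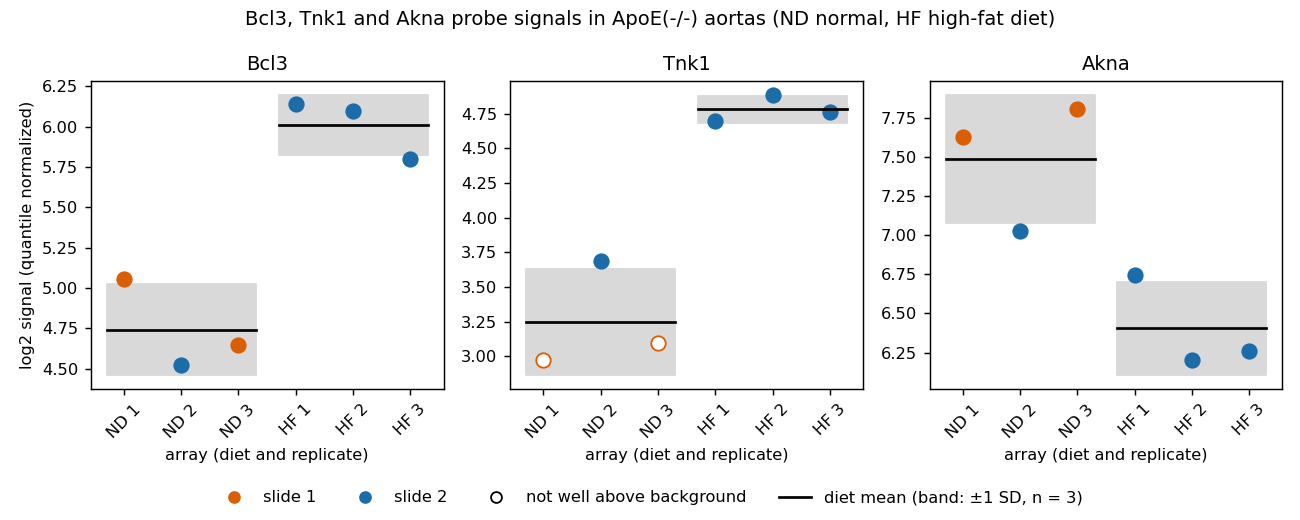
Quantile normalized log2 signal (y axis) of Bcl3, Tnk1 and Akna on each array (x axis, ND normal diet and HF high-fat diet replicates), with colour for the slide, open circles where the probe was not well above background, lines for diet means and bands for 1 SD (n = 3). Normal diet replicate 2 is the lowest normal diet array for Bcl3 (4.52) and Akna (7.02) and the highest for Tnk1 (3.69).

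The fit covered the 64467 probes that every array of 1 or both diets detected. In it limma counted 2.13% of probes as higher and 0.83% as lower by both criteria. Bcl3, Tnk1 and Akna met them, having been chosen by like criteria on these same arrays. These criteria use unadjusted p-values, and after Benjamini-Hochberg adjustment over all kept probes limma called 1 probe, which was none of the 3. That adjusted count was 0 with the slide as a block and 8655 when normal diet replicate 2 was dropped, which leaves 1 diet on each slide. With the slide as a block, 1.64% of probes met both criteria in the higher direction and 0.411% in the lower. That fit compares the high-fat arrays with normal diet replicate 2 alone, and its standard error comes from the spread within the high-fat arrays and between the slide 1 arrays, moderated over all probes. Nothing is read from which members meet the criteria there. The diets did not overlap in 8.87% of probes in the higher direction, with Bcl3 and Tnk1 among them, and in 10.4% in the lower direction, with Akna among them. Over all kept probes the median log2 difference between the diets was 0.01, and its median size was 0.26. The gap between normal diet replicate 2 and the slide 1 normal diet arrays had a median size of 0.40 over the same probes, against 0.33 for Bcl3, 0.66 for Tnk1 and 0.69 for Akna. It had the sign of the diet difference in 68.1% of kept probes and in 85.2% of the 1909 probes that met both criteria, and so it did for Tnk1 and Akna, whereas for Bcl3 it had the opposite sign. On the deposited log2 values, the probes just inside the 2-fold threshold were Fam13a (2.001-fold higher) and Lax1 (2.005-fold lower), and the nearest probes outside it were at 1.996-fold and 1.995-fold. On those values Bcl3 was at 2.41-fold and Akna at 2.11-fold, and no fold is given for Tnk1, whose slide 1 signals were not well above background.

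The intensities before normalization show how far each signal stood above background. For Bcl3 the processed intensity, which is the raw intensity after background subtraction and the later corrections of the software, was 28.1, 23.7 and 22.0 on the normal diet and 66.7, 88.3 and 58.6 on the high-fat diet. The error that the scanner software gives with each was 12.7% to 17.1% of the intensity on the normal diet and 10.3% to 10.4% on the high-fat diet. Raw Bcl3 intensities were 67.9, 46.1 and 63.2 on the normal diet and 80.9, 105 and 78.6 on the high-fat diet, without overlap. The share of all probes without overlap in raw intensity was not counted.

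Tnk1 was the dimmest of the 3 relative to its own background. Its processed intensity was 6.73, 13.0 and 8.07 on the normal diet, with a software error of 37.8% and 36.5% on the slide 1 arrays and 16.8% on replicate 2. On the high-fat diet it was 24.8, 38.4 and 28.7. The raw intensities of Tnk1 overlapped, at 49.8, 36.6 and 53.1 on the normal diet and 48.5, 64.6 and 53.5 on the high-fat diet. The background subtracted at this spot was 42.6 and 44.3 on slide 1, and on slide 2 it was 21.7 to 23.7. Raw intensity was 1.17 and 1.20 times the subtracted background on slide 1, 1.60 times on normal diet replicate 2 and 2.23 to 2.73 times on the high-fat arrays. Within slide 2, where the background was alike, all 3 high-fat arrays had a higher raw Tnk1 intensity than the normal diet array. The part of the background in the Tnk1 difference was not tested.

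Akna was further from background, with processed intensities of 180, 136 and 193 on the normal diet and 101, 95.2 and 80.5 on the high-fat diet, and a software error between 10.1% and 10.2% on every array. Its raw intensities, 219, 160 and 233 against 114, 113 and 100, did not overlap, and here too the share over all probes was not counted. The Akna spot was at least 4.39 times its subtracted background on every array.

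**Figure D2:**
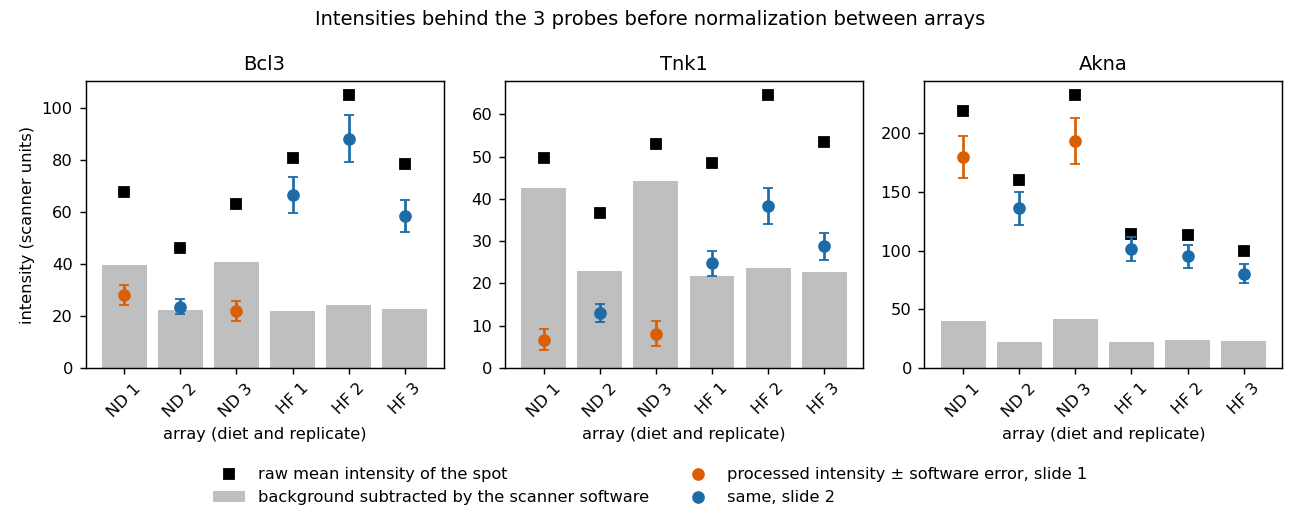
Intensity in scanner units (y axis) of the 3 probes on each array (x axis), with squares for the raw mean of the spot, grey bars for the background that the software subtracted and circles for the processed intensity with the software's own error, coloured by slide. For Tnk1 the raw intensity on the slide 1 arrays (49.8 and 53.1) is as high as on high-fat replicates 1 and 3 (48.5 and 53.5), while the subtracted background there is 42.6 and 44.3.

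The choice of background correction moved the size of the differences and not their direction. Normexp correction of the mean signal used the local background around each spot, not the background that the software had subtracted. Its offset of 50 compresses dim signals. At the Tnk1 spot the local background was 25 on the slide 1 arrays, where the software had subtracted 42.6 and 44.3. On slide 2 it was 20 to 22, against 21.7 to 23.7. The part of each in the change was not tested. After this correction the log2 difference was 0.46 for Bcl3, 0.36 for Tnk1 and -0.80 for Akna, all below 2-fold. Both criteria were then met by 0.315% of probes in the higher direction and 0.18% in the lower. With no background subtracted, which also compresses dim signals, the log2 differences were 0.71, 0.56 and -0.93. Both criteria were then met by 0.503% and 0.298% of probes. A 2-fold limit is harder to reach on either scale. The diets did not overlap on either scale for any of the 3 genes, which were chosen by this contrast. The share of all probes without overlap was not counted on these scales. On the subtracted scale it was 8.87% in the higher and 10.4% in the lower direction. The order of the members by size also changed, since Tnk1 had the largest of the 3 differences on the subtracted scale and the smallest after normexp correction.

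**Figure D3:**
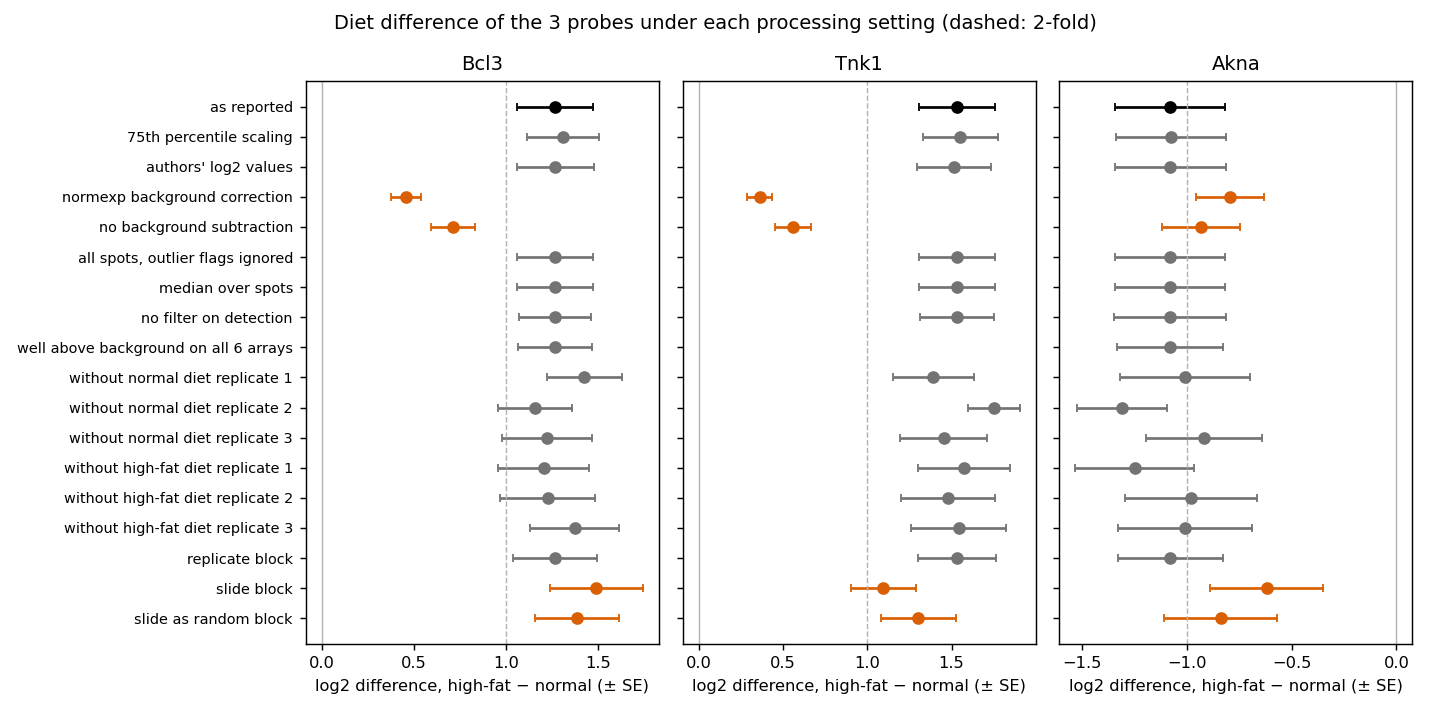
Log2 difference between the diets (x axis, high-fat minus normal, bars for the limma standard error) of Bcl3, Tnk1 and Akna under each processing setting (y axis), with the settings that concern slide or background in orange and a dashed line at 2-fold. No setting reached the other side of 0, and all 3 genes were short of 2-fold after normexp correction (0.46, 0.36 and -0.80) and with no background subtracted (0.71, 0.56 and -0.93), Akna also with the slide as a block (-0.62).

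The study listed Bcl3 with Vcam1, Cx3cl1 and Cxcl1 under the KEGG term for TNF signaling, and with Dhx58 and Ifi27l2a under the ontology term for response to virus. These genes were drawn from the same list of differing mRNAs, so their direction is fixed by the choice. Vcam1, an adhesion molecule that binds leukocytes, had log2 signals of 8.55, 7.62 and 8.68 on the normal diet and 9.86, 10.21 and 9.66 on the high-fat diet by 1 probe, and its other probe gave 9.01, 8.10 and 9.30 against 10.16, 10.59 and 10.18. Cx3cl1, the chemokine fractalkine, had 8.36, 7.04 and 8.03 against 8.77, 9.60 and 9.32. As for Bcl3, normal diet replicate 2 was the lowest array for both Vcam1 probes and Cx3cl1. Their differences were 1.63, 1.51 and 1.42, and 2.29, 2.21 and 2.19 with the slide as a block, where Bcl3 moved from 1.27 to 1.49.

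Cxcl1, a neutrophil-attracting chemokine, had a different pattern. On the normal diet it had 2.49, 2.61 and 2.48, none of them well above background, and it had 6.10, 5.32 and 3.39 on the high-fat diet, with replicate 3 far below replicate 1. Since the normal diet signal is only an upper limit, no fold is given for Cxcl1. Bcl3 was also lowest on high-fat replicate 3, but with a range of 0.34 over the high-fat arrays in place of 2.71.

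Dhx58, an RNA sensor of the RIG-I family, had 5.44, 4.53 and 5.09 on the normal diet and 5.87, 6.53 and 5.91 on the high-fat diet. The interferon-induced Ifi27l2a had 11.01, 10.43 and 11.12 against 11.95, 12.36 and 11.87. Their differences were 1.08 (standard error 0.29) and 1.21 (standard error 0.25), and both were lowest on normal diet replicate 2. After normexp correction Ifi27l2a was at 1.12 and Dhx58 at 0.43, close to the 0.46 of Bcl3.

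A lncRNA was paired with Bcl3 and another with Tnk1 in the study's co-expression list, and 4 with Akna. FR278883, paired with Bcl3, had log2 signals of 1.89, 1.34 and 1.09 on the normal diet, none of them well above background, and 3.46, 3.36 and 2.94 on the high-fat diet, and no fold is given for it either. The lncRNA paired with Tnk1, which is named by a position on chromosome X, was high where Tnk1 was low, with 7.45, 7.00 and 7.32 on the normal diet and 6.37, 6.16 and 6.05 on the high-fat diet. These lists were built from the same 6 arrays, so the likeness describes the choice and is no test.

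The 4 lncRNAs paired with Akna had its order of arrays within the normal diet, with replicate 3 highest and replicate 2 lowest. ENSMUST00000125250 had 10.17, 9.71 and 10.42 on the normal diet and 9.14, 8.69 and 8.78 on the high-fat diet. With each probe centred on its own mean over the 6 arrays, it differed from Akna by a root mean square of 0.0938 on the log2 scale, against 0.192 for n296710, 0.208 for ENSMUST00000155173 and 0.572 for n418283. With the slide as a block the differences were -0.84 for ENSMUST00000125250, -0.67 for n296710, -0.72 for ENSMUST00000155173 and -1.44 for n418283, beside -0.62 for Akna.

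**Figure D4:**
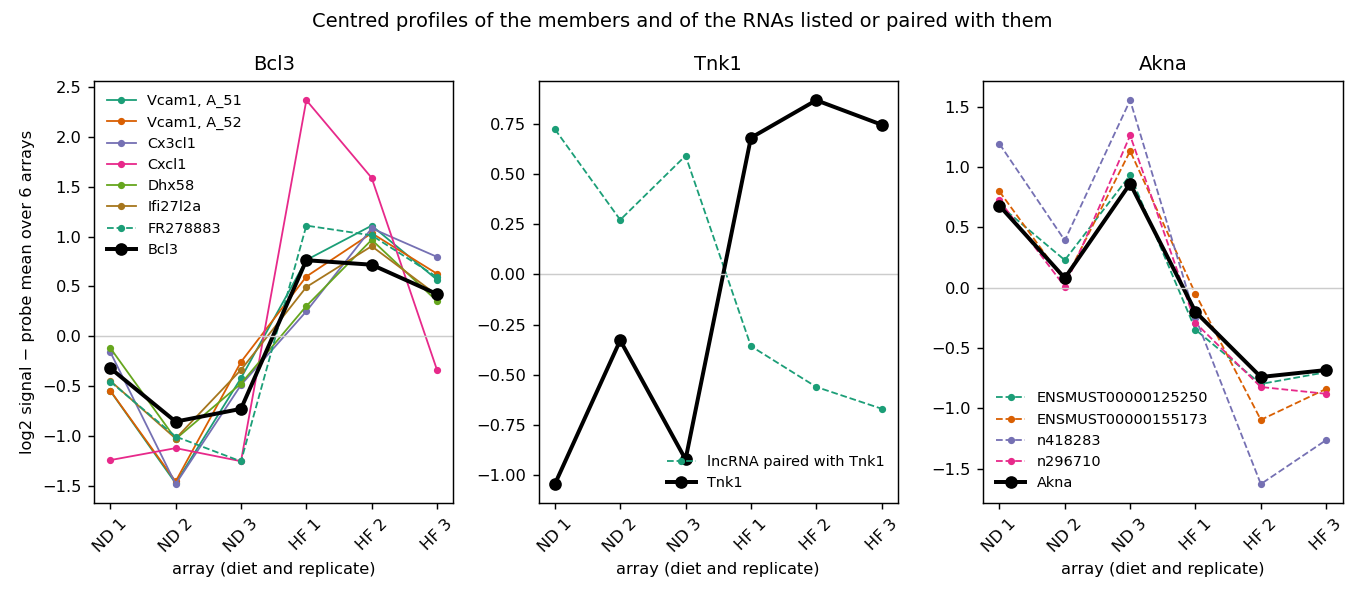
Log2 signal minus the probe's own mean over the 6 arrays (y axis) on each array (x axis), with the member in black, genes listed with Bcl3 as solid lines and paired lncRNAs as dashed lines, joined only to trace a probe. Bcl3 and most of its listed genes are lowest on normal diet replicate 2, and Akna and its 4 lncRNAs are highest on normal diet replicate 3.

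By the same root mean square over 6 arrays, the genes of the list whose profile was nearest to that of Bcl3 were 9030619P08Rik (0.141), Fam13a (0.178), the cell cycle inhibitor Cdkn2c (0.206), Tnfaip2 (0.215), named for its induction by TNF, and the interferon-induced Rtp4 (0.219). For Tnk1 they were AU023617 (0.165), the cytochrome oxidase assembly gene Cox15 (0.187), Necab1 (0.194), Rsph3a (0.217) and the meiotic gene Sycp2 (0.222). Of these 5, Sycp2 was well above background on all 3 normal diet arrays and the others on 1, as was Tnk1. For Akna the nearest were LOC101056428 (0.0416), Pifo (0.0650), Kirrel3 (0.0654), Tsc22d4 (0.0763) and Zfp866 (0.0922), all nearer than any listed gene was to Bcl3 or Tnk1. Bcl3 and Tnk1 differed from each other by 0.404.

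Few of the other genes of these pathways could be read, since a probe has a gene name here only through the list of differing mRNAs. Of 38 NF-κB and related genes sought, 3 were named, Vcam1, Cx3cl1 and Cxcl1, and no subunit of NF-κB, no other IκB protein, neither Cd40 nor Cd40lg, and not Tnk2 was among them. Of 58 cell type markers sought, 7 were named, with none of the 6 smooth muscle and 6 endothelial markers, so the labelled tissue was not checked. Both macrophage markers named of the 8 sought, Cd68 and Clec7a, were higher on the high-fat diet, by 2.11 and 2.12 on the log2 scale. Cd68 had 5.09, 4.38 and 5.94 on the normal diet and 6.87, 7.87 and 7.00 on the high-fat diet, and Clec7a had 5.31, 3.93 and 6.33 against 7.02, 7.87 and 7.05. Both were lowest on normal diet replicate 2, as Bcl3 was, and highest on high-fat replicate 2. Bcl3 was at 6.09 there, close to 6.14 on high-fat replicate 1. With no background subtracted Bcl3 was at 6.54 on high-fat replicate 2 and 6.52 on replicate 1, so this order depends on the scale. With the slide as a block the differences of Cd68 and Clec7a were 2.87 and 3.38, and after normexp correction 1.15 and 1.16. Of the 7 T cell markers sought, Icos, a costimulatory receptor, had 2.36, 3.49 and 2.61 on the normal diet, with 1 of these arrays well above background, and 4.04, 3.67 and 3.96 on the high-fat diet. The Icos difference was 1.07, and 0.40 with the slide as a block and 0.14 after normexp correction. The adaptor Lax1, the other T cell marker named, was at -1.004, and at -0.64 with the slide as a block and -0.40 after normexp correction, so the pair went opposite ways. Prtn3, a neutrophil protease and 1 of 5 markers sought, was at -1.08 and Mylk2, 1 of 5 for striated muscle, at -1.27, both in the direction of Akna, and with the slide as a block they were at -0.79 and -0.69. After normexp correction they were at -0.69 and -1.01. Lrp2, 1 of 5 for epithelium, had 1.07, 4.71 and 1.82 on the normal diet, with 1 of these arrays well above background, and 5.76, 6.08 and 5.79 on the high-fat diet. Its difference of 3.34 was 1.17 with the slide as a block and 0.79 after normexp correction, so its size turned on normal diet replicate 2 and on the background. Their part in the differences of Bcl3, Tnk1 and Akna was not tested.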

How the data were processed

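The samples were 6 aortas, each hybridised to 1 array, and diets and replicate numbers were taken from the labels. The authors deposited, per the file headers, Feature Extraction 10.7.1.1 output with spot intensity, background and flags, and also a series table of quantile normalized log2 values. Outlier spots were left out, spots of a probe averaged, log2 intensities quantile normalized and a probe kept if every array of 1 or both diets detected it, 64467 of 91188. Differences were fitted over all kept probes with limma 3.58.1 (lmFit and eBayes) in R 4.3.3, and called at an unadjusted two-sided p of at most 0.05 with at least a 2-fold difference. The fit was tested on simulated data. A probe was named only through the study's lists of differing RNAs. Named genes are the members, the RNAs listed or paired with them, the 5 nearest listed genes by profile and the named markers. Members and lists were chosen with earlier results of these data known. Promoters are from RefSeq. The precision is limited by how few arrays there are. Each aorta came from its own mouse by the study's methods, so the arrays of a diet are separate animals. The supplement's own fold changes and p-values were not used. Samples with the same replicate number did not deviate together (correlations of -0.261, -0.205 and -0.0340 over probes), so the numbers were not used to pair arrays. Alternatives changed the scaling, background correction, averaging of spots, filter, variance prior, test, slide, replicate block and arrays included.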

Additional observations from a re-analysis of the deposited data

How the results depend on the processing

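Bcl3, Tnk1 and Akna kept their direction under every alternative that gave a value, between 0.46 and 1.49, between 0.36 and 1.75 and between -1.31 and -0.62 on the log2 scale. The filter that asks for signal well above background on all 6 arrays left Tnk1 out and gave no value for it. Changes of more than 1 SD between replicates came from normexp correction (Bcl3 0.46, Tnk1 0.36), from leaving the background in, an alternative chosen after the data were seen (Bcl3 0.71, Tnk1 0.56), and from the slide block or, with the same value, the normal diet array of slide 2 alone (Tnk1 1.09, Akna -0.62). The replicate block left the differences at 1.27, 1.53 and -1.08 and did not change whether any of the 3 met both criteria. Leaving out 1 array gave 1.16 to 1.43 for Bcl3, 1.39 to 1.75 for Tnk1 (the highest without normal diet replicate 2, against arrays not well above background) and -1.31 to -0.92 for Akna, and with the slide as a random block Akna was at -0.84. Over all probes, 1374 were called higher and 535 lower. The counts were 203 and 116 after normexp, 324 and 192 with the background left in, 708 and 213 with the slide as a random block, 359 and 329 with the methods' t-test (0 probes after Benjamini-Hochberg), and 1608 and 555 with the replicate block. In the higher direction the stricter filter gave 525, and in the lower direction the slide block gave 265 and no filter 1275. Without 1 array the counts ran from 722 to 4273 higher and from 344 to 1604 lower, with 4273 and 1604 when normal diet replicate 2 is left out, which leaves 1 diet on each slide. Leaving out normal diet replicate 1 gave 722 higher, high-fat replicate 3 gave 910 higher, normal diet replicate 3 gave 344 lower and high-fat replicate 1 gave 816 lower. The other causes were not tested.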

Other observations

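More probes lay near the profile of Akna over the 6 arrays than near those of Bcl3 or Tnk1. The limits on the root mean square difference were chosen after the data were seen. This measure is not scaled to the size of a profile. The log2 diet difference was -1.08 for Akna, against 1.27 for Bcl3 and 1.53 for Tnk1. The part of size or brightness in the counts was not tested. Within 0.2 of the member's centred log2 profile lay 330 of the 64466 other kept probes for Akna (0.512%), 9 for Tnk1 and 3 for Bcl3, and within 0.3 there were 1455, 99 and 66. None of the 330 probes like Akna was below the limit for signal well above background on both normal diet arrays of slide 1, while 8 of the 9 probes like Tnk1 were, against 8.72% of all kept probes. Within 0.3 the share was 47.5% for Tnk1 (47 of 99), 30.3% for Bcl3 (20 of 66) and 0.137% for Akna (2 of 1455), so it was lower for Tnk1 at the wider limit and was also above that of all kept probes for Bcl3. The median gap between normal diet replicate 2 and the slide 1 arrays was -0.56 in the 330 probes and 0.77 in the 9. These counts include unnamed probes and lncRNA probes, and the sets were chosen by the values described.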
